A study of Mus musculus with 583 samples.

Results

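The 10 genes described here are the main chaperones and folding enzymes of the endoplasmic reticulum (ER) and the transcription factor gene Xbp1: Hspa5, Hsp90b1, Canx, Calr, Pdia3, Pdia4, Pdia6, Xbp1, Dnajb9 and Herpud1. They were chosen by name, and all 10 were found among the 38924 mouse genes of the count table by their Ensembl identifiers. The cells were J1 mouse embryonic stem cells, a single established line, grown in 2i/LIF, a medium that keeps stem cells naive with the cytokine LIF and inhibitors of the kinases MEK and GSK3. No group differed in genotype or treatment. The groups are 6 ways of making single-cell RNA libraries, each with replicates A and B, so the comparisons ask how these genes look in the same kind of cell through each method. Smart-seq / C1 (69 and 61 cells in replicates A and B) and Smart-seq2 (80 and 77 cells) read transcripts over their full length. CEL-seq2 (34 and 37 cells), MARS-seq (29 and 36 cells), SCRB-seq (39 and 45 cells) and Drop-seq (42 and 34 cells) read a tag near the 3' end and count unique molecular identifiers (UMIs). The Fluidigm C1 microfluidic chip was used for Smart-seq / C1 and CEL-seq2, while SCRB-seq started from cells sorted by FACS and Drop-seq from droplets. How the cells of Smart-seq2 and MARS-seq were isolated is not given here. Amplification was by in vitro transcription in CEL-seq2 and MARS-seq and by PCR elsewhere.

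Proteins that enter the ER are folded there by a shared machinery. Hspa5 (BiP) is the Hsp70 of the ER and also holds the stress sensors inactive, Hsp90b1 (GRP94) is its Hsp90, Canx and Calr (calnexin and calreticulin) hold glycoproteins by their sugar chains, and Pdia3, Pdia4 and Pdia6 are protein disulfide isomerases, which form and rearrange disulfide bonds. When unfolded proteins build up, the unfolded protein response raises these genes through the transcription factors ATF6 and XBP1. Xbp1 mRNA is itself a target and is spliced by the sensor IRE1, Dnajb9 (ERdj4) is an Hsp40 co-chaperone of BiP, and Herpud1 is a membrane protein of ER-associated degradation. Total counts per gene, as used here, cannot tell spliced from unspliced Xbp1.

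The motif through which these genes are known to be raised together is the ER stress response element (ERSE), written as CCAAT, 9 bases of any kind, and CCACG. It was searched on both strands of the RefSeq promoters of the GRCm38.p6 assembly, from 250 bases before to 50 bases after each start, in which all 10 genes had an entry. The exact motif was in 5 of the 10 promoters, Hspa5, Hsp90b1, Canx, Calr and Pdia6, against 39 of all 32851 promoters (0.119%). The Hsp90b1 promoter held it 2 times. Herpud1 held the related ERSE-II (ATTGGNCCACG), found in 12 promoters of all (0.0365%). With at most 1 mismatch in the 10 fixed letters, ERSE was in 8 of the 10 promoters, the further ones being Pdia3, Pdia4 and Herpud1, against 1.50% of all promoters. CCAAT alone, which is part of both motifs, was in 9 of 10 against 37.4% of all. The core of the XBP1 element (TGACGTGG) was in 0 of 10 against 0.676%. The motif was searched because it is known for these genes, so its share among them is a description and no independent result. A match is a run of letters in this window and not a measured binding site.

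The sequences are shown because these letters are what the promoters share, with capitals marking the letters that match the motif or its reverse complement, each written 5' to 3' along its gene. They lie at chr2:34772020-34772048 (Hspa5, plus strand), chr10:86705528-86705556 (Hsp90b1, minus strand, nearer the start), chr10:86705613-86705681 (Hsp90b1, farther), chr11:50325775-50325843 (Canx, minus strand), chr8:84847050-84847118 (Calr, minus strand), chr12:17266466-17266534 (Pdia6, plus strand), chr6:47813577-47813645 (Pdia4, minus strand, 1 mismatch), chr2:121413868-121413896 (Pdia3, plus strand, 1 mismatch) and chr8:94386352-94386412 (Herpud1, plus strand, ERSE-II). In GENCODE M21 the Hspa5 match falls in an exon of 1 transcript of that gene and the Pdia3 match in exons of 2, while the matches of the other genes shown lie upstream of any exon.
Hspa5: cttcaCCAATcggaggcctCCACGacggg
Hsp90b1, nearer: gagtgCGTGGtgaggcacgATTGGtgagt
Hsp90b1, farther: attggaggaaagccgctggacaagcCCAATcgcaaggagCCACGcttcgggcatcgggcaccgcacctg
Canx: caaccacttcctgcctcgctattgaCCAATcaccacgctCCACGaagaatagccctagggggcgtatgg
Calr: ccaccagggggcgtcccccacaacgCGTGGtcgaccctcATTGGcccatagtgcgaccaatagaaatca
Pdia6: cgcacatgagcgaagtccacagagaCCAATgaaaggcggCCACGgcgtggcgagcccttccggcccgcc
Pdia4: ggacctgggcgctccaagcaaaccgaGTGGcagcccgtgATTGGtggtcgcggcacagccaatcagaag
Pdia3: cgcagCCAATcggcggctgCCACactgcg
Herpud1: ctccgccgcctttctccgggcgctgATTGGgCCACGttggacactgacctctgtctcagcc
In the Hspa5 promoter the match spans bases 65 to 47 before the start, in Pdia6 bases 98 to 80, in Canx bases 145 to 127 and in Calr bases 162 to 144. Xbp1 and Dnajb9 had none of these motifs beyond the CCAAT of Dnajb9.

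The libraries held between 583302 counts (Drop-seq B) and 34984056 counts (Smart-seq2 A), reads in the full-length methods and UMIs in the tag methods. Naive stem cell markers were found in full in every library, 10 of 10, with a summed level between 3299 and 7663 CPM (counts scaled to a common library total). Fibroblast markers summed to 23.9 to 166 CPM, of which genes other than Fbln1 made up 0.445 to 46.4 CPM, and Postn and Twist2 were at 0 in every library. Primitive endoderm markers summed to 0 to 39.7 CPM, with Ttr at 0 throughout. Replicate libraries of the plate and chip methods shared 19 to 66 cell barcodes or well names, and Drop-seq replicates shared 0. Within Drop-seq, 29 of 42 barcodes in A and 12 of 34 in B lay within 1 base (a substitution or a missing base) of another barcode of the same library. Joined, they would make 25 and 28 cells, so Drop-seq values per cell below are given with that limit. MARS-seq B had a median mitochondrial share of 0.782%, against 5.91% in MARS-seq A.

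Levels are given as CPM after TMM scaling of the summed counts of each library. Hspa5 stood at 745 and 838 CPM by Smart-seq / C1 A and B and at 782 and 725 by Smart-seq2. It was 484 and 538 CPM by CEL-seq2, 176 and 274 by MARS-seq, 457 and 419 by SCRB-seq and 684 and 568 by Drop-seq. All 4 full-length libraries were above all 8 tag libraries, and both MARS-seq libraries were the lowest. Hsp90b1 was 1063 and 891 CPM by Smart-seq / C1, 527 and 548 by Smart-seq2, 453 and 394 by CEL-seq2, 514 and 503 by MARS-seq, 605 and 619 by SCRB-seq and 1171 and 949 by Drop-seq. Its high libraries were thus those of Smart-seq / C1 and Drop-seq. Of its 31-base words, 12.6% also occur in other transcripts, and 1810014B01Rik overlaps 415 of its exonic bases on the other strand, so part of its count is uncertain.

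Calnexin was the gene with the widest range. Canx was 3379 and 5822 CPM by Smart-seq / C1, 615 and 606 by Smart-seq2, 511 and 489 by CEL-seq2, 233 and 121 by MARS-seq, 593 and 631 by SCRB-seq and 709 and 852 by Drop-seq. The highest library was 48.0 times the lowest. In Smart-seq / C1 this membrane-bound lectin made up 46.9% and 61.0% of the summed level of the 10 genes, against 5.87% to 23.9% in the other libraries. In Smart-seq / C1 A the lowest cell had 787 CPM, the median cell 3717 and the highest 10603, and in B 1787, 4990 and 10859. The cells of Smart-seq2 ran from 260.3 to 1317 CPM in A and from 162 to 1394 in B, so the lowest cell of Smart-seq / C1 A lay within the range of Smart-seq2 and all cells of B above it. Its soluble relative Calr was much more even, at 915 and 531 CPM by Smart-seq / C1, 634 and 657 by Smart-seq2, 395 and 455 by CEL-seq2, 299 and 571 by MARS-seq, 364 and 489 by SCRB-seq and 754 and 542 by Drop-seq. The ranges of Calr in the full-length and the tag methods overlapped.

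The disulfide isomerases each had a pattern of their own. Pdia3, which works with calnexin and calreticulin, was 319 and 480.0 CPM by Smart-seq / C1 and 616 and 609 by Smart-seq2, and lay between 87.8 and 253 CPM in the 8 tag libraries. Pdia4 was 178 and 232 CPM by Smart-seq / C1 and 245 and 252 by Smart-seq2, and in CEL-seq2 only 26.2 and 23.1 CPM, below the other 6 tag libraries, which ran from 81.4 to 168 CPM. Pdia6 was the reverse case. It was 1222 and 778 CPM by CEL-seq2, above every other library, 516 and 659 by Smart-seq / C1, 549 and 564 by Smart-seq2, and between 221 and 309 CPM by MARS-seq, SCRB-seq and Drop-seq.

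Xbp1, Dnajb9 and Herpud1 were low in every method. Xbp1 was 34.7 and 40.3 CPM by Smart-seq / C1, 69.2 and 96.2 by Smart-seq2, 62.4 and 28.1 by CEL-seq2, 50.1 and 83.6 by MARS-seq, 31.6 and 41.4 by SCRB-seq and 18.7 and 17.8 by Drop-seq. Smart-seq2 and MARS-seq B were the high libraries and Drop-seq the low ones. Dnajb9 lay between 6.61 and 19.7 CPM in 11 libraries and had 0 UMIs in MARS-seq B. A count of 0 there allows up to 3.53 CPM on the same scale (3 counts), which covers counting error only. Replicates of Dnajb9 differed as much as methods did (6.61 and 19.4 CPM by Drop-seq, 7.69 and 19.6 by Smart-seq / C1), and 11.3% of its 31-base words are shared, mostly with Gm6568. Herpud1 was 44.8 and 38.8 CPM by Smart-seq / C1 and 25.1 and 27.7 by Smart-seq2, and between 3.24 and 24.2 CPM in the tag libraries, where it rested on 2 to 29 UMIs per library.

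**Figure D1:**
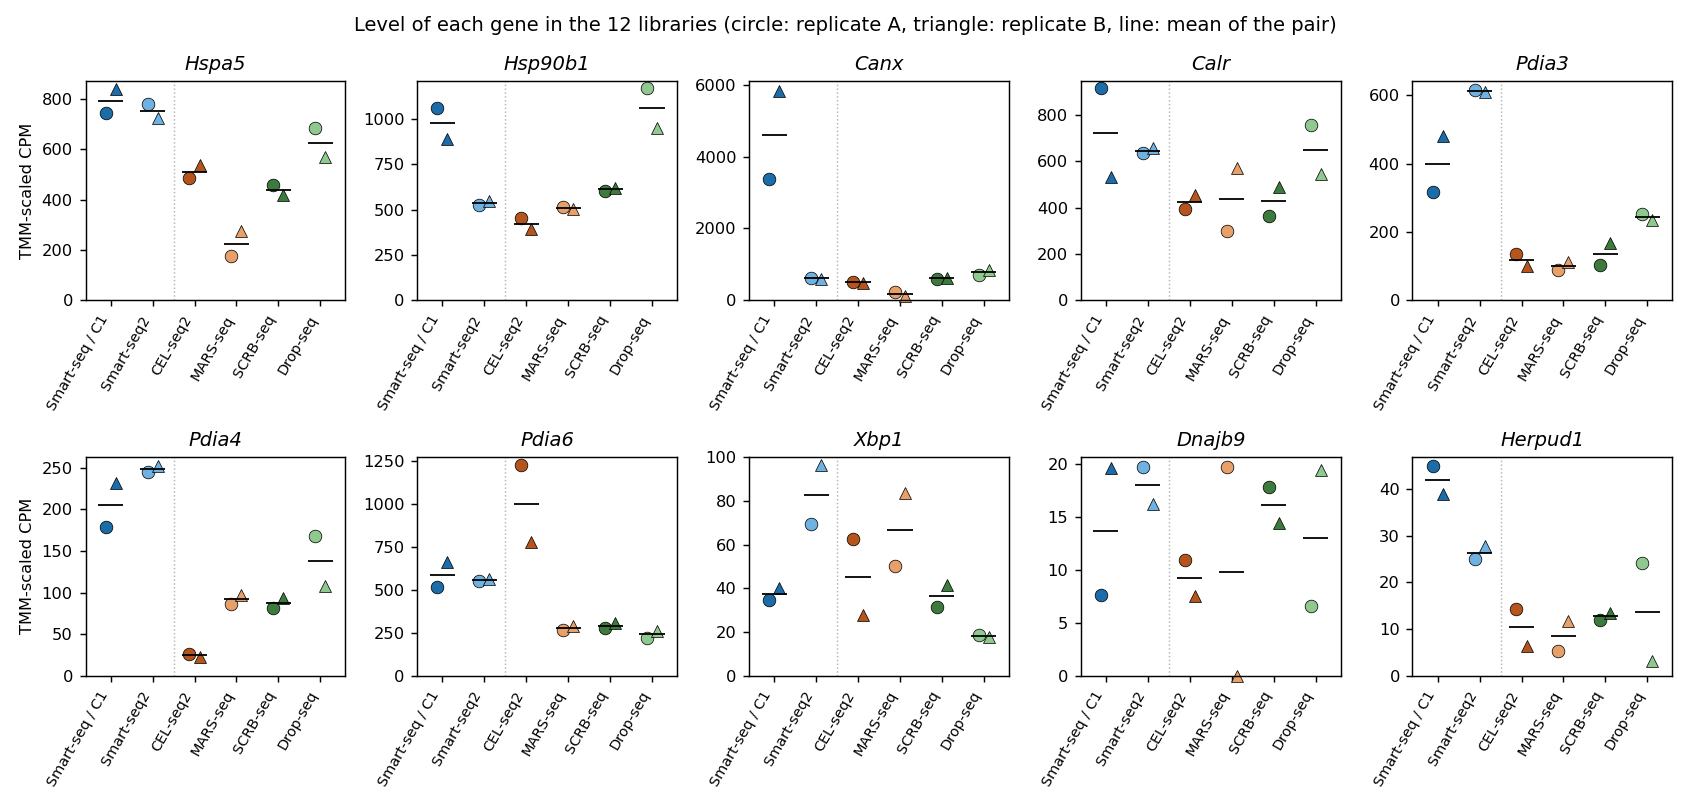
Level of each of the 10 genes in TMM-scaled CPM (vertical axes start at 0 and differ between panels), by method, with replicate A as a circle, B as a triangle and the mean as a line; full-length methods are left of the dotted line. Canx stands at 3379 and 5822 CPM in Smart-seq / C1, Pdia6 at 1222 and 778 CPM in CEL-seq2, and Pdia4 at 26.2 and 23.1 CPM in CEL-seq2.

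Read counts of different genes can be set side by side only per length. For the full-length methods this was done in CPM per kilobase of the longest transcript. In both Smart-seq2 libraries the order from the top was Calr (mean 296 CPM per kilobase), Pdia6 (256), Pdia3 (221), Hspa5 (205), Hsp90b1 (167), Canx (143), Pdia4 (103), Xbp1 (38.8), Herpud1 (13.5) and Dnajb9 (7.31). The replicates kept this order throughout, with Hspa5 at 213 and 197 beside Pdia3 at 222 and 220 CPM per kilobase. In Smart-seq / C1 Canx came first in both libraries, at 789 and 1360 CPM per kilobase. Pdia4 was seventh, ahead of Herpud1, Xbp1 and Dnajb9, in both. Calr was the second there in A (419) and the fourth in B (243), so the neighbours Calr, Hsp90b1 and Pdia6 could not be ordered.

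Differences between methods were tested with edgeR on the library sums, with adjusted p-values over 14293 genes. In the joint test of any difference between the 6 methods, 8 of the 10 genes passed, where 65.4% of all genes tested were called. Canx had the smallest adjusted p (3.13e-08), followed by Pdia4 (6.07e-06) and Pdia3 (7.19e-06). Calr (adjusted p = 0.156) and Dnajb9 (0.857) did not pass. Since most genes passed, the count for these 10 is near the background. Nothing in the labels says that replicates A and B came from separate cultures, so p-values measure the spread between libraries only, which may be technical.

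Full-length methods gave higher levels than tag methods for 6 of the 10 genes, 5 chaperones and isomerases and Herpud1. Canx was 3.70-fold higher on average over methods (log2 1.89 ± 0.20 SE, edgeR adjusted p = 3.84e-07), Pdia3 3.52-fold (log2 1.82 ± 0.20, adjusted p = 4.27e-07) and Pdia4 3.12-fold (log2 1.64 ± 0.19, adjusted p = 1.22e-06). Herpud1 (log2 1.55 ± 0.39, adjusted p = 0.00308), Hspa5 (0.87 ± 0.18, 0.000542) and Pdia6 (0.61 ± 0.18, 0.0102) also passed. In all, 6 of 10 rose and 0 fell, where 25.6% of all genes were called higher and 23.2% lower. The median of the 10 was log2 0.74, against 0.21 for all genes tested. For Pdia3, Pdia4, Hspa5 and Herpud1 the full-length libraries all lay above the tag libraries, as they lay above or below them for 2498 of 14293 genes. For Canx and Pdia6 the groups overlapped: Canx was lower in both Smart-seq2 libraries than in both Drop-seq libraries, and Pdia6 was higher in both CEL-seq2 libraries than in every full-length one. These 6 calls held in each of 12 fits that left out 1 library. A read count grows with transcript length where a UMI count does not. Lengths were taken into the fit as each library's own trend of levels with transcript length, in the tag libraries too. This also moved values between tag methods, such as Canx in CEL-seq2 against MARS-seq, from log2 1.51 to 0.75. With lengths in the fit Hspa5 (log2 0.40, edgeR adjusted p = 0.0902) and Pdia6 (0.39, 0.109) no longer passed, and the reason was not tested. Calr (log2 0.52 ± 0.21, adjusted p = 0.0517), Xbp1 (0.57 ± 0.27, 0.0944), Hsp90b1 (0.25 ± 0.17, 0.253) and Dnajb9 (0.46 ± 0.54, 0.512) did not pass, although Calr passed in 10, Xbp1 in 7, Hsp90b1 in 6 and Dnajb9 in 1 of the fits that left out 1 library. Without MARS-seq A, Dnajb9 had log2 3.08 with MARS-seq then at 0, so that this fitted value depends on the prior count. Leaving out 1 library also moved the median of all genes, from log2 0.21 to between 0.26 and 0.56. Without MARS-seq A this median was 0.53 and Hsp90b1 was also at 0.53. Such passes thus include a shift shared by all genes.

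Other ER genes gave both directions in the same comparison. Among the other folding factors, 7 of 18 tested rose and 1 fell: Dnajb11, an Hsp40 of the ER (log2 1.16 ± 0.23), Erp44 (1.18 ± 0.25) and P4hb, the founding disulfide isomerase (0.90 ± 0.20), were among those that rose, and the cyclophilin Ppib fell by 1.43 on the log2 scale. Of the translocon, through which proteins enter the ER, 4 of 9 rose, led by Ssr3 (1.83 ± 0.19), and the small subunits Sec61g (-1.71 ± 0.24) and Sec61b (-1.25 ± 0.22) fell. With lengths in the fit, the value of Sec61b was log2 1.46 and so of the opposite sign. Of ER-associated degradation, 4 of 13 rose, with Edem1 (1.63 ± 0.33) and Derl2 (1.23 ± 0.30), and 2 fell, Vcp (-2.19 ± 0.25) and Erlec1 (-0.87 ± 0.35). Of the sensors and the PERK arm, 1 of 12 rose, Ppp1r15a (0.82 ± 0.30), a phosphatase subunit that restores translation. Of the lectin cycle, 1 of 7 rose, Uggt1 (0.67 ± 0.26), which marks misfolded glycoproteins for another round with calnexin.

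Between the full-length methods, Smart-seq / C1 against Smart-seq2, Canx had the largest change of the 10 genes. It was 7.53-fold higher in Smart-seq / C1 (log2 2.91 ± 0.36 SE, edgeR adjusted p = 8.41e-05) and passed in each of 12 fits that left out 1 library. Hsp90b1 was 1.82-fold higher (log2 0.86 ± 0.28, adjusted p = 0.0462), a call that was lost in 10 of those 12 fits, with adjusted p up to 0.357. It was also lost with the replicate block (0.86, adjusted p = 0.0516), with no filter on low counts (0.79, 0.147) and with limma on the mean log2(CPM + 1) of cells (0.63, 0.22). So 2 of 10 were called higher and 0 lower, against 8.75% and 6.81% of all genes. The median of the 10 was log2 0.07, beside 0.11 for all genes. Xbp1 was lower in Smart-seq / C1 without passing (log2 -1.14 ± 0.44, adjusted p = 0.0854). Its libraries did not overlap, as was so for 8790 of 14293 genes. Hspa5 (0.07 ± 0.30) and Pdia6 (0.08 ± 0.30) were close to 0. The summed level without Canx was 3823 and 3729 CPM in Smart-seq / C1 and 3466 and 3495 CPM in Smart-seq2.

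Among the other ER genes in this comparison, 4 of 9 translocon genes rose, with Sec63 (log2 2.37 ± 0.42), Ssr3 (1.81 ± 0.33) and Ssr1 (1.61 ± 0.32), and Sec61b fell (-1.03 ± 0.33). Of ER-associated degradation, Edem1 (2.47 ± 0.54) and Erlec1 (2.40 ± 0.56) rose and the ubiquitin ligase gene Syvn1 fell (-2.62 ± 0.64), out of 13. The remaining calls were falls of Sdf2l1 (-2.58 ± 0.46), a partner of BiP, in 18 folding factors, of Prkcsh (-1.23 ± 0.38) in 7 lectin cycle genes, and of the stress sensor Atf6b (-3.45 ± 0.64) in 12 genes of the sensors and the PERK arm.

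CEL-seq2 against MARS-seq, which both amplify by in vitro transcription, split the isomerases. Pdia6 was 3.58-fold higher in CEL-seq2 (log2 1.84 ± 0.32 SE, edgeR adjusted p = 0.000452) and Pdia4 lower (log2 -1.91 ± 0.36, adjusted p = 0.00096), each passing in 12 of 12 fits that left out 1 library. Canx (log2 1.51 ± 0.36, adjusted p = 0.00533) and Hspa5 (1.18 ± 0.31, 0.00981) were higher in CEL-seq2. Canx did not pass without MARS-seq B (log2 1.12, adjusted p = 0.112) or with lengths in the fit (0.75, 0.181), and Hspa5 did not pass without MARS-seq A (0.86, 0.206) or with lengths in the fit (0.53, 0.257). The call of Pdia4 was lost with limma on the mean log2(CPM + 1) of cells (-1.07, 0.112). With 3 of 10 higher and 1 lower, the counts stood beside 11% and 12.4% of all genes. The median of the 10 was log2 0.10 and that of all genes 0.19. Calr (-0.04 ± 0.36), Hsp90b1 (-0.26 ± 0.28), Pdia3 (0.21 ± 0.35) and Xbp1 (-0.60 ± 0.46) did not pass.

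Of the other ER genes, CEL-seq2 was higher than MARS-seq in 5 and lower in 1 of 18 folding factors, with Txndc5 (log2 1.88 ± 0.48), Pdia5 (1.91 ± 0.54) and Ppib (1.12 ± 0.32) higher and the immunophilin Fkbp2 lower (-2.02 ± 0.47). The translocon genes Sec61g (-4.22 ± 0.44), Ssr2 (-2.48 ± 0.34) and Sec61b (-2.55 ± 0.36) were lower and Ssr3 higher (1.41 ± 0.35), out of 9. Of 13 genes of ER-associated degradation, 3 were higher, among them the ATPase gene Vcp (1.54 ± 0.38), and Sel1l was lower (-2.27 ± 0.71). In the lectin cycle Uggt1 was higher (1.51 ± 0.47) and the glucosidase gene Mogs lower (-2.18 ± 0.61), out of 7, and of the sensors and the PERK arm Ppp1r15a was higher (1.93 ± 0.55), out of 12.

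Drop-seq and SCRB-seq, which both amplify tags by PCR, gave no call. With edgeR 0 of 10 passed, beside 1.03% of all genes called higher and 0.483% lower. At an unadjusted p under 0.05 there were 2, Hsp90b1 (log2 0.79 ± 0.28 SE, adjusted p = 0.158) and Pdia3 (0.86 ± 0.34, 0.19), both higher in Drop-seq. DESeq2 called the same 2 genes (log2 1.01, adjusted p = 0.00221, and 1.07, 0.0355). Limma on the mean log2(CPM + 1) of cells called Xbp1, with log2 -2.70 and an adjusted p of 0.0123, on a scale where the median of all genes was log2 -0.82. Of the 10 values, 7 were above 0, and their median was log2 0.43, beside -0.09 for all genes. None of the other ER lists had a call in this comparison. The standard errors were 0.28 to 0.36 for the 7 chaperones and isomerases. Differences well above that size, such as the 0.79 of Hsp90b1 and the 0.86 of Pdia3, did not pass with edgeR. The lack of calls therefore does not exclude differences of that size.

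Within the tag methods, in vitro transcription (CEL-seq2 and MARS-seq) was set against PCR (SCRB-seq and Drop-seq). On average over methods, in vitro transcription gave lower levels for 5 genes and higher levels for 2. Canx (log2 -1.22 ± 0.25 SE, edgeR adjusted p = 0.00217), Pdia4 (-1.21 ± 0.24, 0.00192) and Hsp90b1 (-0.80 ± 0.20, 0.00944) were lower with in vitro transcription. So were Pdia3 (-0.74 ± 0.24, 0.0356) and Hspa5 (-0.63 ± 0.21, 0.0439). Pdia6 was higher (0.99 ± 0.22, 0.00405), as was Xbp1 (1.08 ± 0.34, 0.0313). Only for Canx and Hsp90b1 did all in vitro transcription libraries lie below all PCR libraries. For the other called genes the groups overlapped. Pdia6 averaged 1000.4 CPM in CEL-seq2 and 279 in MARS-seq, beside 292 in SCRB-seq and 242 in Drop-seq. Pdia4 averaged 24.6 CPM in CEL-seq2 and 91.8 in MARS-seq, beside 87.7 in SCRB-seq and 138 in Drop-seq. Hspa5 averaged 511 CPM in CEL-seq2 and 225 in MARS-seq, beside 438 in SCRB-seq and 626 in Drop-seq. Pdia3 and Xbp1 kept the called direction in the mean of each method. The background was 9.14% higher and 12.9% lower, and the median of the 10 was log2 -0.64, beside -0.08 for all genes. The fits below each left out 1 library and never a whole method. The part of amplification in these calls was not tested. Canx, Pdia4 and Pdia6 passed in each of 12 fits that left out 1 library, and Hsp90b1 in all but the one without Drop-seq A (log2 -0.78, adjusted p = 0.0518). The other calls were near the threshold: Hspa5 passed in 3 of those 12 fits (adjusted p up to 0.195), Xbp1 in 4 (up to 0.186) and Pdia3 in 5 (up to 0.187). The call of Hspa5 was also lost when cells over 2 times their library's median count were left out (-0.58, 0.0553) or with no filter on low counts (-0.65, 0.0678), and that of Xbp1 with lengths in the fit (0.93, 0.0558) and with limma on the mean log2(CPM + 1) of cells (0.88, 0.2). Calr (-0.29 ± 0.25), Dnajb9 (-0.66 ± 0.70) and Herpud1 (-0.52 ± 0.53) did not pass.

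Of the sensors and the PERK arm, 4 of 12 rose and 0 fell in this comparison. These included the transcription factor Atf4 (log2 1.83 ± 0.28, edgeR adjusted p = 0.000192) and its targets Trib3 (3.08 ± 0.80, 0.011) and Chac1 (5.55 ± 1.77, 0.033). The levels of these genes and their fits with a library left out are not given here. A value as large as that of Chac1 may rest on few counts. Of 18 folding factors, Ppib (0.99 ± 0.23) and Sdf2l1 (1.47 ± 0.36) rose and Fkbp2 (-1.52 ± 0.32) and Dnajc3 (-1.07 ± 0.36) fell. Of ER-associated degradation, the partners Syvn1 (2.02 ± 0.55) and Sel1l (1.88 ± 0.53) rose and Selenos (-0.88 ± 0.28) fell. Of the translocon, 0 of 9 rose and 2 fell, Sec61g (-1.57 ± 0.28) and Sec63 (-1.05 ± 0.31). Of the lectin cycle Uggt1 (1.31 ± 0.34) rose and Clgn (-1.41 ± 0.43) fell.

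The C1 chip was used in 1 full-length and 1 tag method, so its 2 contrasts could be compared by an interaction, Smart-seq / C1 minus Smart-seq2, less CEL-seq2 minus MARS-seq. These contrasts differ in chemistry as well as chip, and the effects cannot be told apart. Of the 10 genes, 1 was called with a positive difference, Pdia4 (log2 1.63 ± 0.47 SE, edgeR adjusted p = 0.0258), and 1 with a negative one, Pdia6 (-1.76 ± 0.43, 0.0105), where 8.58% and 7.13% of all genes were called. In both genes the larger contrast was that between the tag methods: Pdia4 differed by -0.28 ± 0.31 between the full-length methods and by -1.91 ± 0.36 between the tag methods, and Pdia6 by 0.08 ± 0.30 and 1.84 ± 0.32. The call of Pdia4 was lost in 10 of 12 fits that left out 1 library (adjusted p up to 0.161), with no filter on low counts (log2 1.51, adjusted p = 0.0817) and with limma on the mean log2(CPM + 1) of cells (0.22, 0.827). That of Pdia6 was lost without Smart-seq2 B (-1.74, 0.0522) and with lengths in the fit (-1.19, 0.0821). Canx was higher in each C1 method than in its partner. In CEL-seq2, at 511 and 489 CPM, it still lay below every library of SCRB-seq, Drop-seq and Smart-seq2. Canx had an interaction of 1.41 ± 0.49 (edgeR adjusted p = 0.0597). That passed with lengths in the fit (2.08, 0.0134), with DESeq2's size factors (1.60, 0.0326) and with DESeq2 (1.60, 0.00886). Hsp90b1 likewise had 1.13 ± 0.40 (0.0647), which passed under the same settings. Hspa5 had -1.11 ± 0.43 (0.0856).

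In this interaction the translocon had 5 positive and 0 negative calls of 9, led by Sec61g (log2 4.30 ± 0.56), Ssr2 (2.57 ± 0.46) and Sec61a1, the channel itself (2.22 ± 0.50). Of 18 folding factors, 3 were negative, Sdf2l1 (-3.41 ± 0.67), Hyou1, the large ER Hsp70 relative (-2.89 ± 0.77), and Txndc5 (-2.34 ± 0.64). The median of all genes was log2 -0.07.

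**Figure D2:**
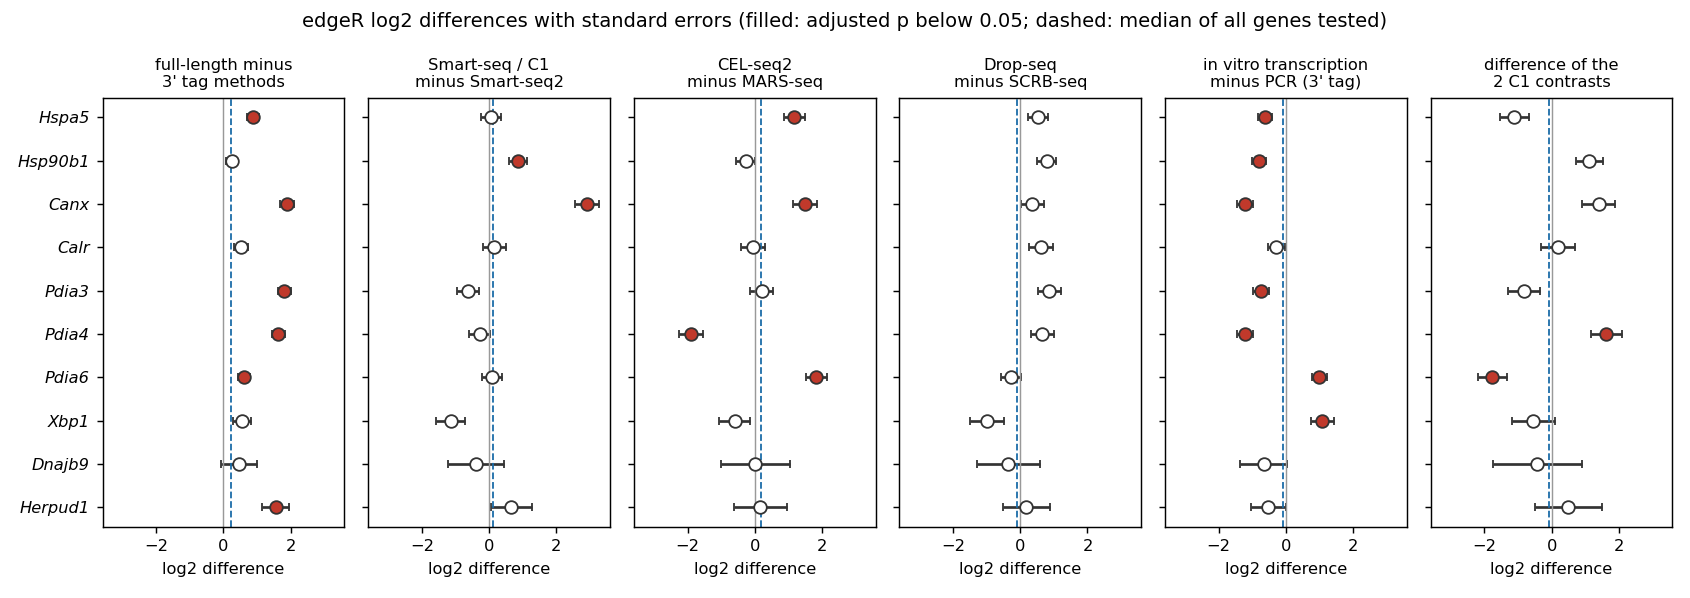
Log2 differences (horizontal axis) with standard errors for the 10 genes in the 5 comparisons and the difference of the C1 contrasts, from the edgeR fit on 12 libraries; filled points passed at an adjusted p below 0.05 and the dashed line is the median of all genes tested. Canx reaches 2.91 in Smart-seq / C1 minus Smart-seq2, and Pdia4 and Pdia6 lie at -1.91 and 1.84 in CEL-seq2 minus MARS-seq.

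Most chaperones were seen in nearly every cell. Hsp90b1 had at least 1 count in every cell of all 12 libraries, and Hspa5, Canx and Calr in every cell of 10 libraries. The exceptions were MARS-seq A and B for Canx (96.6% and 80.6% of cells) and Hspa5 (89.7% and 97.2%), and MARS-seq A and Drop-seq B for Calr (96.6% and 97.1%). Pdia6 was found in 88.2% to 100% of cells, Pdia3 in 62.1% to 100% and Pdia4 in 47.1% (CEL-seq2 A) to 100%.

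Xbp1 was found in 96.2% and 97.4% of Smart-seq2 cells (77 of 80 and 75 of 77), 75.4% and 62.3% of Smart-seq / C1 cells and 21.4% and 26.5% of Drop-seq cells (exact 95% binomial intervals 10.3% to 36.8% and 12.9% to 44.4%). When each cell was thinned to 10000 counts, which no cell fell below, these shares became 51.2% and 64.9%, 23.2% and 18.0%, and 9.52% and 14.7%. MARS-seq B, at 50.0% thinned, was the library nearest to Smart-seq2. Herpud1 went from 48.8% to 68.1% of cells in the full-length libraries to 17.5% to 29.0% thinned, and in the tag libraries from 5.88% to 43.6% to 2.94% to 14.3% thinned. Dnajb9 was found in 82.5% and 63.6% of Smart-seq2 cells, and in 21.2% and 15.6% thinned. It was found in 0 of 36 cells of MARS-seq B, which allows up to 8.33% of cells with a UMI (3 of 36) and does not limit the share of cells that express the gene. Thinning matches the number of counts per cell, which are reads in the full-length and UMIs in the tag methods, so it does not match the number of molecules. The cells are 1 line, so there was no cell type lacking these genes from which to take a background share of free RNA, and intervals cover counting error only.

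**Figure D3:**
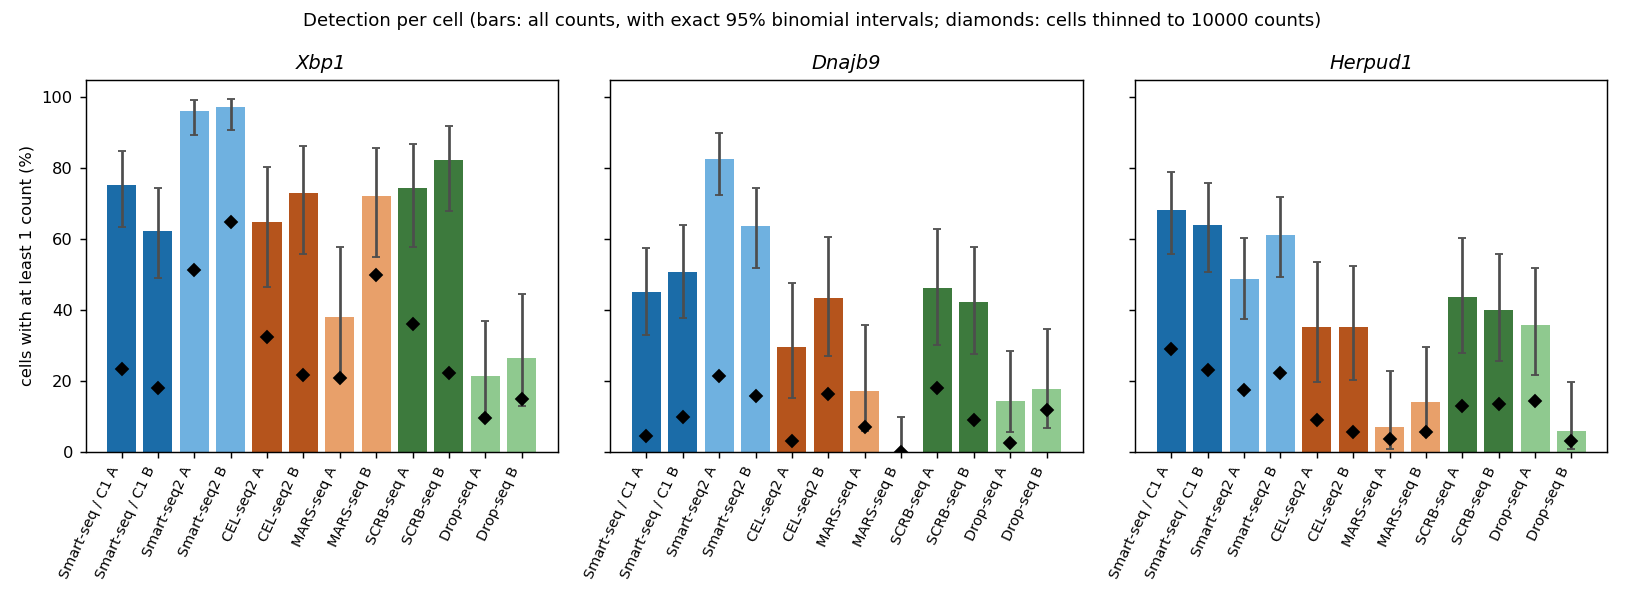
Percentage of cells with at least 1 count of Xbp1, Dnajb9 and Herpud1 (vertical axis) in each library, as bars for all counts with exact 95% binomial intervals and as diamonds for cells thinned to 10000 counts. Smart-seq2 falls from 96.2% and 97.4% to 51.2% and 64.9% for Xbp1.

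Averaged over methods, Hspa5 varied more among cells than other genes of its level, a call close to the threshold. Variation was measured as the squared coefficient of variation in thinned cells, as log2 above the trend of all genes with the mean, and 6 of the 10 genes had enough counts in every library. Hspa5 lay 0.40 ± 0.12 (SE) above the trend on average over methods (limma adjusted p = 0.0462), where 45 of 2653 genes were called above (1.70%) and 44 below (1.66%). It was highest in Smart-seq2, 1.30 and 1.29 above the trend, and above it in both libraries of Smart-seq / C1 (0.56 and 0.48), CEL-seq2 (0.75 and 0.32) and Drop-seq (0.87 and 0.32). In MARS-seq (-0.29 and -0.28) and SCRB-seq (-0.23 and -0.27) it lay below the trend in both libraries, so the methods did not share one direction. In Smart-seq2 A the cells ran from 26.5 to 3108 CPM of Hspa5 around a median of 885, while in SCRB-seq A they ran from 112 to 620.0 around 431. These 2 ranges are from all counts, reads in 80 cells against UMIs in 39. The call was lost in 10 of 12 fits that left out 1 library (adjusted p up to 0.134), with Drop-seq barcodes joined (0.39, 0.0642) and at 5000 counts per cell (0.40, 0.0502).

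None of the other 5 genes passed. Calr lay 0.27 ± 0.12 above the trend (limma adjusted p = 0.215), Pdia6 0.24 ± 0.11 (0.237), Hsp90b1 0.24 ± 0.11 (0.252), Pdia3 0.16 ± 0.11 (0.445) and Canx 0.10 ± 0.10 (0.677). Pdia6 was above the trend in 10 of 12 libraries and Hsp90b1 in 9. Among genes averaging 1 count or more in each library, where fewer genes share the adjustment, Calr (adjusted p = 0.0443) and Pdia6 (0.0471) passed too.

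Cells with more of 1 chaperone tended to have more of the others. For the 6 genes that averaged 1 count or more per cell in each library, Spearman's rho across the cells of a library was computed on CPM for each of 15 pairs and averaged over 12 libraries. The average was above 0 for 15 of 15 pairs, with a median of 0.177, and 13 of 15 lay above 0.0863, the 90th percentile of all 1699246 pairs of 1844 genes, whose median was 0.014. These are descriptions: cells of a library share its depth and preparation, and no test was made. Hspa5 with Hsp90b1 had the highest mean (0.38) and was above 0 in 12 of 12 libraries, at 0.69 and 0.72 by Smart-seq2, 0.33 and 0.55 by Smart-seq / C1, 0.06 and 0.45 by CEL-seq2, 0.19 and 0.13 by MARS-seq, 0.50 and 0.27 by SCRB-seq and 0.35 and 0.36 by Drop-seq. Hsp90b1 with Pdia6 followed at 0.33 and Hsp90b1 with Calr at 0.27. Canx was the least tied, at 0.06 with Pdia6, 0.07 with Calr and at most 0.15, with Hsp90b1.

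In all counts the strength differed between methods, which also differ in counts per cell. The median of the 15 pairs was 0.41 and 0.48 by Smart-seq2, 0.25 and 0.30 by Smart-seq / C1, 0.25 and 0.21 by CEL-seq2 and 0.24 and 0.24 by SCRB-seq. It was -0.02 and 0.07 by MARS-seq and 0.02 and 0.12 by Drop-seq, the shallowest methods. In cells thinned to 10000 counts the median over pairs and libraries was 0.0932, with 15 of 15 pairs above 0 and 9 of 15 above the 90th percentile of all pairs (0.0639). With the total count held fixed (partial correlation) it was 0.168, and with Drop-seq barcodes joined 0.182. Thinned values per library are given for Hspa5 with Hsp90b1 only. They were 0.37 and 0.34 by Smart-seq2, 0.23 and 0.44 by Smart-seq / C1 and -0.10 and 0.27 by CEL-seq2. MARS-seq had 0.03 and 0.34, SCRB-seq 0.17 and 0.08 and Drop-seq 0.18 and 0.26. How far depth accounts for the differences between methods was not tested.

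**Figure D4:**
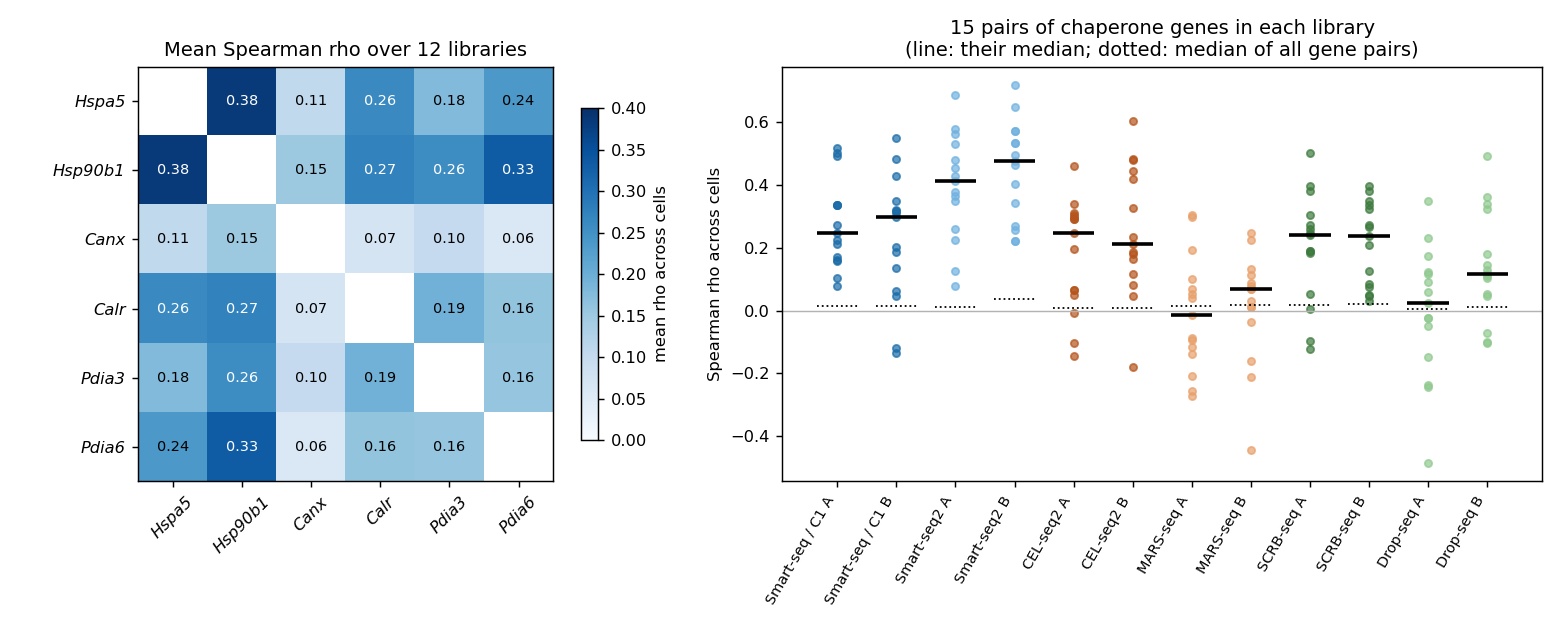
Left, mean Spearman rho across cells over 12 libraries for each pair of the 6 genes that reached 1 count per cell in every library; right, the 15 pairs in each library (points), their median (line) and the median of all gene pairs (dotted). Hspa5 with Hsp90b1 is highest (0.38), Canx pairs are lowest, and the medians run from -0.02 in MARS-seq A to 0.48 in Smart-seq2 B.

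**Figure D5:**
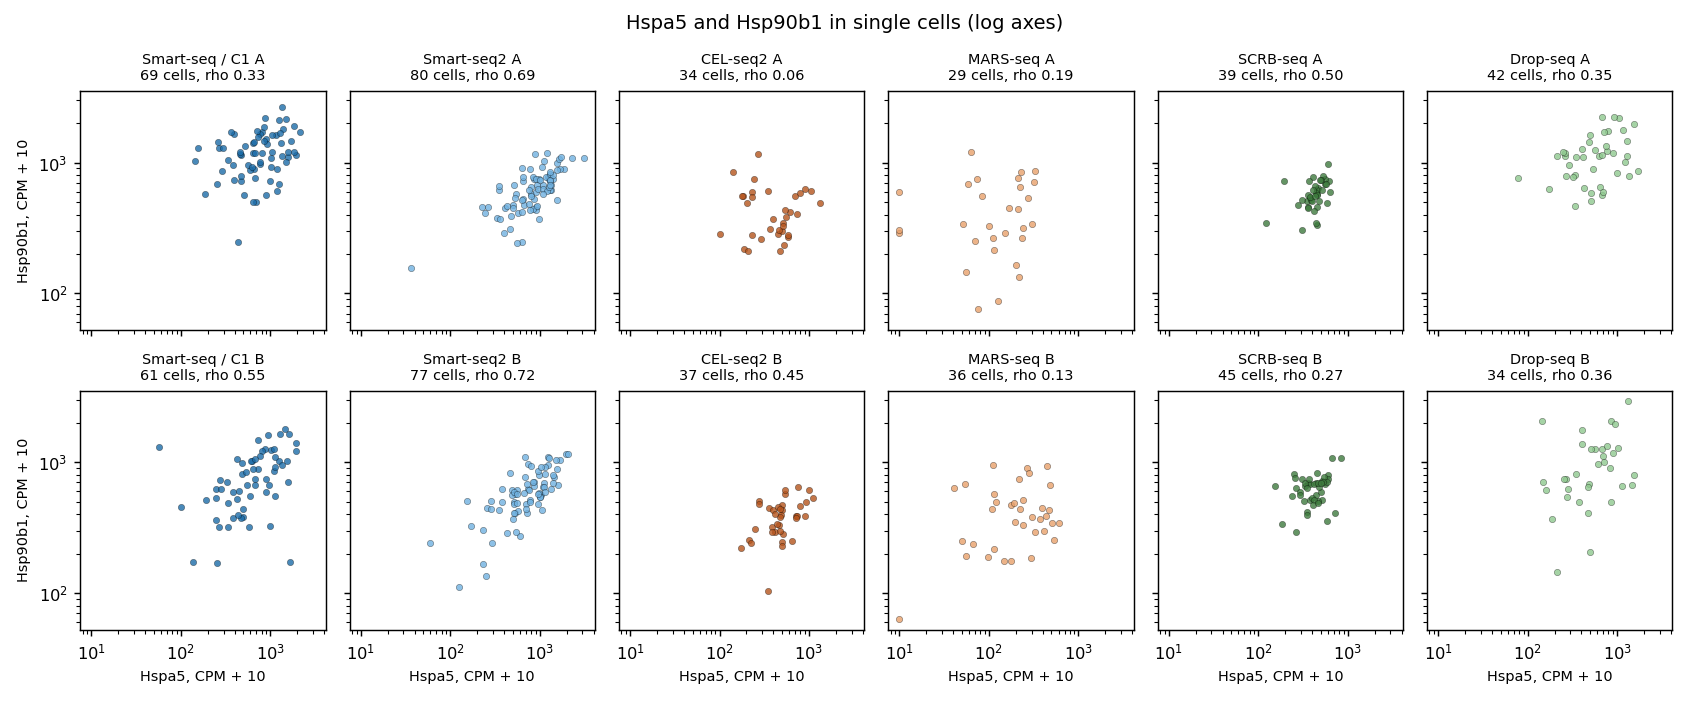
Hspa5 (horizontal) against Hsp90b1 (vertical) in single cells of each library, in CPM + 10 on log axes, 1 point per cell. The cloud is most drawn out in Smart-seq2 (rho 0.69 and 0.72) and has little slope in CEL-seq2 A (0.06) and MARS-seq B (0.13).

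Pairs with the 4 genes of lower counts are described in the deeper full-length libraries. There Pdia4 went with Hsp90b1 (mean rho 0.41 over 4 libraries, 0.26 to 0.52), Hspa5 (0.40, 0.25 to 0.55) and Calr (0.38, 0.26 to 0.60), above 0 in 4 of 4 libraries each time. Xbp1 went less with Hspa5 (0.19, above 0 in 4 of 4, at 0.35 and 0.27 in Smart-seq2 and 0.15 and 0.00478 in Smart-seq / C1) and Pdia4 (0.18). Herpud1 showed next to none with Hspa5 (0.00476) or Hsp90b1 (-0.04), and Dnajb9 with Hspa5 had 0.05.

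Beyond these 10 genes, the sum of the other ER folding factors followed the summed share of the 10 in a cell, with a mean rho of 0.38 and above 0 in 11 of 12 libraries, up to 0.80 in Smart-seq2 B. The translocon had 0.22 and ER-associated degradation 0.19, each above 0 in 10 of 12. The sensors and the PERK arm (-0.05), cytosolic heat shock genes (0.03), naive markers (-0.02) and mitosis genes (-0.06) had means near 0, with libraries on both sides: heat shock genes ran from -0.43 in Smart-seq / C1 A to 0.49 in SCRB-seq A, and mitosis genes from -0.41 in Drop-seq A to 0.23 in Smart-seq2 A. In those Smart-seq / C1 A and SCRB-seq A libraries the share of the 10 genes also went with the mitochondrial percentage (-0.49 and 0.42) and the spike-in percentage (-0.44 and 0.53). In Smart-seq / C1 A and B the share rested largely on Canx, which made up 46.9% and 61.0% of the summed level. The total count of a cell had a mean rho of 0.15 with the share, and reached 0.60 in SCRB-seq A. Its part in the pattern was not tested beyond the partial values above.

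Of 1843 other genes, Hsp90b1 was the one most like Hspa5 across cells, and Calr, Pdia6, Pdia3 and Canx held places 3, 4, 12 and 152. The most alike outside the 10 was Manf, an ER-resident protein of the stress response, at a mean rho of 0.32 and above 0 in 12 of 12 libraries. The next were Dynll1 (0.22), Ccne1 (0.21), Rps4l (0.21), Atp2a2, the calcium pump of the ER (0.21), Fam136a (0.20), Luc7l3 (0.18), Ccna2 (0.18), P4hb (0.17) and Mphosph6 (0.17). The 99th percentile of all genes was 0.161. In thinned cells Manf had 0.17 and Fam136a 0.16, and the others named here 0.08 to 0.13. For Xbp1, compared with 5520 genes at a lower count minimum, the most alike were Hacd2 (0.20), Psmc3ip (0.19), the ER folding factors Fkbp2 (0.19) and Sdf2l1 (0.18), and Crlf3 (0.17), where the 99th percentile was 0.121. Of the 10 genes, Hspa5 (0.14) was the closest to Xbp1 in all counts, at place 16. The order differed in thinned cells, where Calr had 0.16 and Pdia6, Hspa5 and Hsp90b1 had 0.14 each. Pdia3 (0.05), Pdia4 (0.04) and Canx (0.01) were lower there. Of the genes outside the 10, Hacd2 had 0.14 thinned, Psmc3ip 0.13, Crlf3 0.13, Fkbp2 0.11 and Sdf2l1 0.08. Promoter entries were at hand for 5 of the 10 genes named for Hspa5 and for 5 of 5 named for Xbp1, and 0 of these held ERSE or ERSE-II. In the other ER lists ERSE was found in Dnajc3, Creld2 and Syvn1, and ERSE-II in Dnajb11. Not all genes of these lists had a promoter entry. Entries were at hand for 13 of 19 folding factors, 11 of 13 genes of ER-associated degradation and 7 of 9 translocon genes. The lectin cycle had 5 of 7, and the sensors and the PERK arm 12 of 14.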

How the data were processed

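The authors deposited 1 table of whole-number counts per gene and cell for 583 cells. Per the submitters' processing notes, builds and tools were mm10, bcl2fastq and STAR 2.4.0, and the UMI data were made with the Drop-seq pipeline from exon-tagged reads. What counted the Smart-seq reads, and the annotation, are not given in the sources used here. The library (method and replicate letter, from the labels) was the unit of replication, since cells of 1 library are not replicates; all cells were kept, without a doublet caller. Genes were matched to GENCODE M21 (37607 of 38924).

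Counts were summed per library and tested with edgeR 4.0.16 (filterByExpr, TMM, robust quasi-likelihood, 1 mean per method, 12 libraries in 1 fit, Benjamini-Hochberg over 14293 genes, threshold 0.05), with 5 orthogonal contrasts and the interaction of the C1 contrasts. Levels are TMM-scaled CPM. Variation among cells used limma 3.58.1 on residuals from a loess trend (span 0.5) in cells thinned to 10000 counts, for genes averaging 0.2 counts or more per cell in each library. Both tests were tried on simulated data. Named from each other ER list were up to 3 genes per direction with the smallest p, plus the 10 genes most like Hspa5 and 5 most like Xbp1. The genes and lists were chosen with earlier results of these data known. Replicate letters did not pair libraries across methods. Alternatives were DESeq2 1.42.0 and its size factors, limma on mean log2(CPM + 1), no filter, a length offset, a replicate block, cells over 2 times the median left out, and each library left out. Sequences are from RefSeq, GRCm38.p6, the assembly also called mm10. Intervals are exact Clopper-Pearson at 95%.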

Additional observations from a re-analysis of the deposited data

Results flagged for a closer look

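The difference between the 2 contrasts that involve the C1 chip was itself tested, and it passed for 2 of the 10 genes. For Pdia4, Smart-seq / C1 minus Smart-seq2 exceeded CEL-seq2 minus MARS-seq by 1.63 on the log2 scale (edgeR adjusted p = 0.0258), with means of 205 and 248 CPM in Smart-seq / C1 and Smart-seq2 and of 24.6 and 91.8 CPM in CEL-seq2 and MARS-seq. For Pdia6 the difference was -1.76 (adjusted p = 0.0105), with means of 588 and 557 CPM in the full-length pair and 1000.4 and 279 CPM in CEL-seq2 and MARS-seq.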

How the results depend on the processing

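Over 1246 values recomputed for single genes under the alternatives, 1120 stayed on their side of the threshold with the same sign where called, 0 calls changed sign, and 58 values that were never called changed sign. The numbers of the 10 genes called moved by over 1.5 times as follows, and the cause was not tested. Smart-seq / C1 against Smart-seq2 went from 2 to 1 with no filter and with the replicate block, CEL-seq2 against MARS-seq from 4 to 2 with the length offset, Drop-seq against SCRB-seq from 0 to 2 with DESeq2 and 1 with limma, and the C1 interaction from 2 to 4 with DESeq2 or its size factors, 5 with limma and 1 with no filter. Variation went from 1 to 0 with barcodes joined and at 5000 counts, and to 3 with a mean of at least 1. Leaving out 1 library gave 6 to 10 genes for full-length against tag methods, 1 to 2 for Smart-seq / C1 against Smart-seq2, 3 to 4 for CEL-seq2 against MARS-seq, 3 to 7 for in vitro transcription against PCR, 0 to 3 for the interaction and 0 to 1 for variation.

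Over all genes, CEL-seq2 against MARS-seq went from 3341 to 6484 calls with limma and the interaction from 2246 to 6506. Drop-seq against SCRB-seq went from 216 to 954 with DESeq2, 325 with its size factors (280 higher and 45 lower, against 147 and 69), 4066 with limma and 469 with no filter, and variation from 89 to 26 at 5000 counts. Leaving out 1 library gave 609 to 3305 calls for Smart-seq / C1 against Smart-seq2 (2223 in full), 1779 to 3932 for CEL-seq2 against MARS-seq, 11 to 626 for Drop-seq against SCRB-seq, 1746 to 3845 for in vitro transcription against PCR (3144 in full), 1105 to 2903 for the interaction and 36 to 129 for variation. With DESeq2's size factors the median of all genes became log2 0.11 in place of -0.09 for Drop-seq against SCRB-seq, and 0.02 in place of 0.19 for CEL-seq2 against MARS-seq. The length offset turned the split of in vitro transcription against PCR from 1307 higher and 1837 lower to 1560 and 1408. Limma on the mean log2(CPM + 1) of cells moved the median of all genes and with it the splits: to 258 higher and 1893 lower (median -0.36) from 1250 and 973 for Smart-seq / C1 against Smart-seq2, 455 and 3611 (-0.82) from 147 and 69 when Drop-seq was set against SCRB-seq, 850 and 5656 (-1.40) from 1227 and 1019 for the interaction, 5272 and 1212 (0.85) from 1569 and 1772 for CEL-seq2 against MARS-seq, and 6260 and 2681 (0.57) from 3653 and 3322 for full-length against tag methods. DESeq2 gave 791 and 163 for Drop-seq against SCRB-seq.

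Replicate letters did not pair the libraries: over 15 pairs of methods, deviations of same-lettered libraries correlated between -0.08 and 0.08. The replicate block gave 6815 calls for full-length against tag methods (6975 without it) and 2074 for Smart-seq / C1 against Smart-seq2. The median detection over genes and libraries, 100% of cells in all counts, was 87.3% at 10000 and 63.4% at 5000 counts per cell, so depth limits what is said of the 3 low genes.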
